A study of Amorphotheca resinae with 20 samples.

Results

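Syringaldehyde was compared with 4-hydroxybenzaldehyde by RNA sequencing of wild type mycelia of Amorphotheca resinae ZN1, a filamentous fungus. The comparison rested on 4 of the 20 libraries of the series, 2 with syringaldehyde and 2 with 4-hydroxybenzaldehyde, chosen by their treatment labels. Both compounds were given at 0.1 g/L and the mycelia were collected at 4 h from potato-dextrose medium at 28 °C. The same experiment held 2 libraries with vanillin at 0.1 g/L and 2 of a control without a phenolic aldehyde, and all 8 libraries entered the fit. Furan and weak acid inhibitors were studied in 12 further libraries, which enter here only as levels. The 3 phenolic aldehydes share a ring with an aldehyde and a hydroxyl group across from it, and carry 2 methoxy groups in syringaldehyde, 1 in vanillin and 0 in 4-hydroxybenzaldehyde. At one mass dose the molar doses were 0.549 mmol/L syringaldehyde, 0.657 mmol/L vanillin and 0.819 mmol/L 4-hydroxybenzaldehyde. The number of methoxy groups and the molar dose therefore moved together, and their parts in any difference cannot be told apart.

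Phenolic aldehydes are set free when lignin is broken down during the pretreatment of plant biomass, and they hold back the growth of fermenting microbes. Syringaldehyde comes from syringyl units of lignin, vanillin from guaiacyl units and 4-hydroxybenzaldehyde from p-hydroxyphenyl units. Fungi are known to reduce such aldehydes to alcohols or to oxidise them to acids, and in fungi such as Aspergillus 4-hydroxybenzoic acid is hydroxylated to protocatechuic acid before its ring is opened. Which of these enzymes the genes below encode is not known here, because the count tables give identifiers of the form ARZ_800_T1 without names and 0 of 18830 matched the reference table.

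The libraries held 16914126 and 15250262 counts with syringaldehyde, 15058009 and 15534822 with 4-hydroxybenzaldehyde, and between 14609602 and 26106956 in the other 4. Of 18830 identifiers, 17495 had enough counts to be tested, and those left out held 0.0210% of the counts. The duplicates were not equally close. The log2 difference between the 2 libraries of a group had an SD across 11614 genes of 0.419 for syringaldehyde and 0.164 for 4-hydroxybenzaldehyde, with 0.255 for vanillin and 0.312 for the control. Syringaldehyde replicate 1 lay farther from both 4-hydroxybenzaldehyde libraries (Euclidean distances of 107.9 and 108.5 over all tested genes, on the scale of log2 CPM, the counts of a gene scaled to a common library size) than replicate 2 did (93.8 and 95.3), while the distance between the syringaldehyde libraries themselves was 78.2 and that between the 4-hydroxybenzaldehyde libraries 40.9. The labels give the assays as done in duplicate and do not say whether the mycelia were grown separately. The p-values therefore rest on the spread between duplicate libraries, which may be technical. That spread was estimated for each gene over all 4 groups together, although the syringaldehyde duplicates differed most.

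Syringaldehyde and 4-hydroxybenzaldehyde differed at 3719 genes (21.3% of those tested), of which 1784 were higher with syringaldehyde (10.2%) and 1935 lower (11.1%), by edgeR's quasi-likelihood test at a Benjamini-Hochberg adjusted p under 0.05. The 2 libraries of one compound lay on the same side of both of the other at 10964 genes (62.7%). With 2 libraries against 2, genes can separate this way without a difference, so this is not a count of genes that differed. Most differences were modest, with a median size of 0.87 on the log2 scale among the genes that differed. At 760 genes (4.34%) the difference was larger than 1.5-fold by a test against that size, with 310 higher with syringaldehyde (1.77%) and 450 lower (2.57%). At the other end, 3667 genes (21.0%) had a 95% interval that stayed inside 1.5-fold either way. Across all tested genes the median log2 difference was 0.00, which scaling the libraries to each other tends to bring about.

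The count moved with single libraries, and most with the 4-hydroxybenzaldehyde duplicates, the closest pair. Without 4-hydroxybenzaldehyde replicate 1 it was 1116 (399 higher and 717 lower), and without replicate 2 it was 1161 (460 higher and 701 lower), of which 1113 and 1158 were among the 3719. Without syringaldehyde replicate 1 the count was 3167 and without replicate 2 it was 4905. The count beyond 1.5-fold was 339 or 345 without a 4-hydroxybenzaldehyde library, 1373 without syringaldehyde replicate 2, 483 in a fit of the 4 compared libraries alone and 499 by DESeq2's Wald test. Without 4-hydroxybenzaldehyde replicate 1 those beyond 1.5-fold were 95 higher and 244 lower, and without syringaldehyde replicate 2 they were 677 higher and 696 lower.

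**Figure D1:**
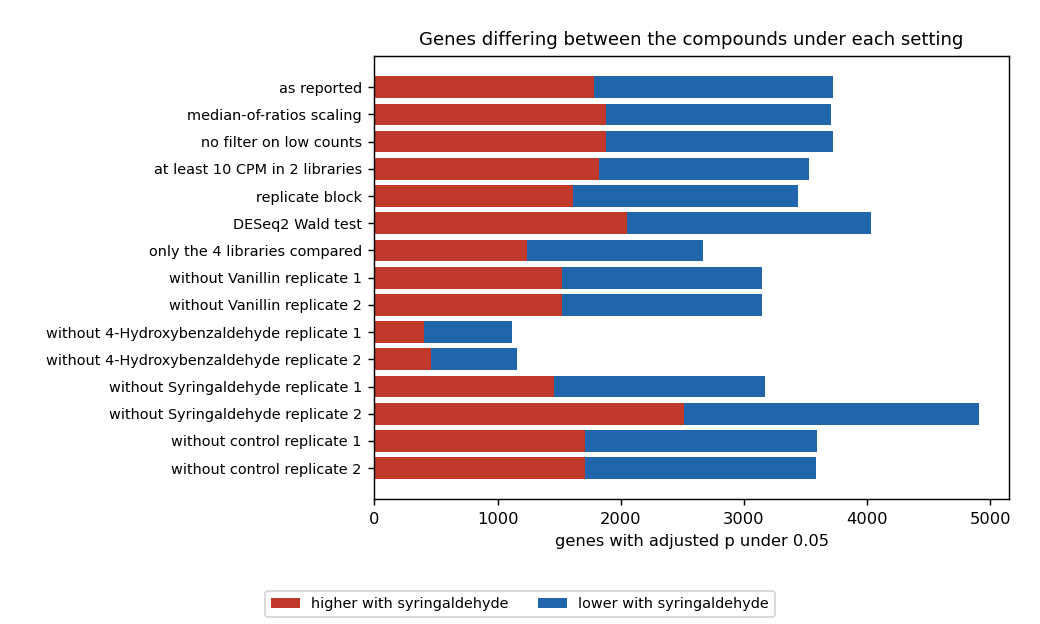
Genes that differed between syringaldehyde and 4-hydroxybenzaldehyde at an adjusted p under 0.05 (x axis, number of genes) under each setting (rows), with those higher with syringaldehyde in red and those lower in blue. The bar is 3719 genes as reported, between 2665 and 4032 under the 6 other ways of scaling, filtering or testing, and shortest without a 4-hydroxybenzaldehyde library, at 1116 and 1161.

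The share that differed moved with the level of the gene. Of 977 genes with a mean under 1 CPM over the 4 libraries, 2.87% differed, with a median SE of 0.74 on the log2 scale. The share was 25.3% of the 9243 genes between 10 and 100 CPM, where the median SE was 0.19, and 26 of 66 genes (39.4%) at 1000 CPM or more. Genes are described further where they differed at least 2-fold, reached a mean of 10 CPM with one of the compounds and had libraries that did not overlap, which 1042 genes did (5.96%), 449 higher with syringaldehyde (2.57%) and 593 lower (3.39%).

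The size of these differences was not the same in both directions. At least 4-fold differences were seen at 45 higher and 103 lower genes, at least 8-fold at 12 higher and 50 lower, at least 16-fold at 2 higher and 33 lower, and at least 32-fold at 1 higher and 22 lower. None of the 1042 genes was without reads in both libraries of a compound. The 449 higher genes held 10.01% and 7.75% of the counts in the syringaldehyde libraries, against 3.09% and 3.19% in the 4-hydroxybenzaldehyde libraries. The 593 lower genes held 2.66% and 3.07% with syringaldehyde, against 9.46% and 9.64% with 4-hydroxybenzaldehyde. The direction of both differences in summed share is fixed by the choice of the genes.

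**Figure D2:**
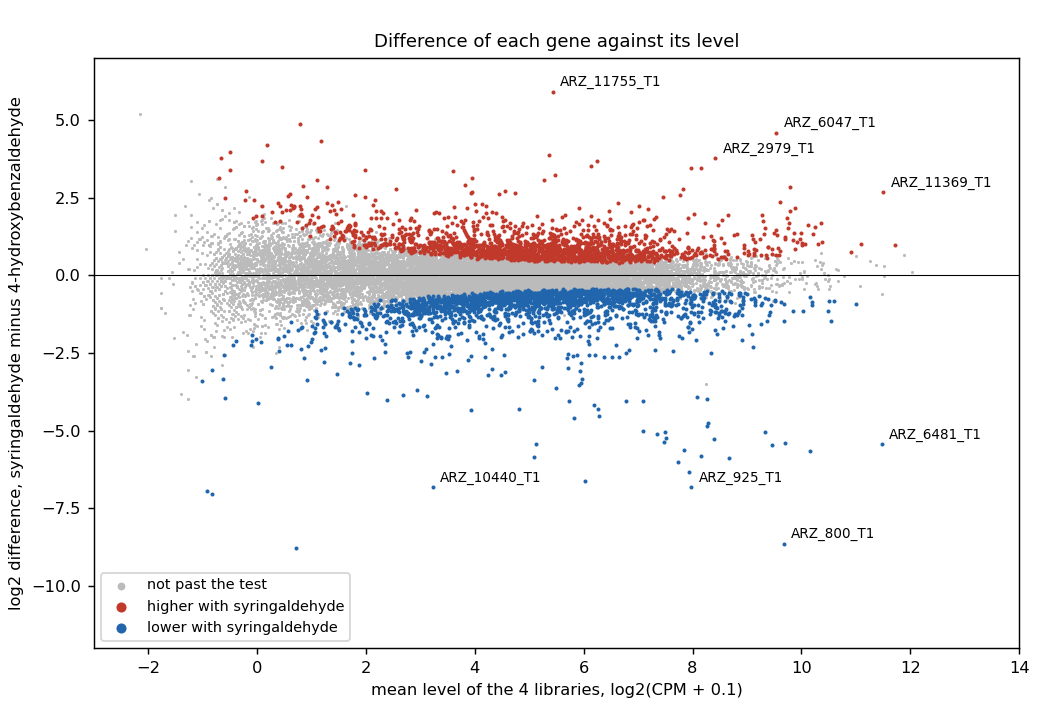
Log2 difference, syringaldehyde minus 4-hydroxybenzaldehyde (y axis), against the mean level of the 4 libraries as log2(CPM + 0.1) (x axis), 1 point for each of 17495 genes, red where higher with syringaldehyde and blue where lower at an adjusted p under 0.05. The points reach farther down than up, with ARZ_800_T1 at −8.64 and ARZ_11755_T1 at 5.92, and the blue points beyond −4 include genes as abundant as ARZ_6481_T1.

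Vanillin and the control place these differences. Each was set against the midpoint of the 2 compounds in the same fit, which tells whether its level was nearer to the one or the other. At genes where the 2 compounds were not shown to differ, the side rests only on the sign of an uncalled difference. Both contrasts use the syringaldehyde and 4-hydroxybenzaldehyde libraries, so they are not independent of each other. Those libraries also choose the genes that differ, and their spread is unequal, so placements among such genes are not independent of that choice. Over all genes vanillin was called off the midpoint at 1188 (6.79%), nearer to syringaldehyde at 777 (4.44%) and nearer to 4-hydroxybenzaldehyde at 411 (2.35%). The control was called off it at 2716 genes (15.5%), nearer to syringaldehyde at 843 (4.82%) and nearer to 4-hydroxybenzaldehyde at 1873 (10.7%). These counts moved with single libraries. For vanillin the count was 284 or 287 without vanillin replicate 1 or 2, 451 or 515 without 4-hydroxybenzaldehyde replicate 1 or 2, and 2316 or 2358 without syringaldehyde replicate 1 or 2. For the control it was 1086 or 702 without control replicate 1 or 2, 1016 or 1130 without 4-hydroxybenzaldehyde replicate 1 or 2, and 4861 without syringaldehyde replicate 2.

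Among the 3719 genes that differed between the compounds, vanillin was called nearer to syringaldehyde at 368 (9.90%) and nearer to 4-hydroxybenzaldehyde at 153 (4.11%), and at the rest it was not called off the midpoint. That order was lost without vanillin replicate 2, when it was 75 against 81, and without vanillin replicate 1 it was 93 against 67. The control was called nearer to syringaldehyde at 168 (4.52%) and nearer to 4-hydroxybenzaldehyde at 752 (20.2%). Without control replicate 1 these were 49 and 430, without replicate 2 they were 104 and 228, and without syringaldehyde replicate 2 they were 232 and 1864. By mean level, of the 449 higher genes, vanillin lay between the compounds at 323, beyond syringaldehyde at 103 and beyond 4-hydroxybenzaldehyde at 23, and of the 593 lower genes at 453, 94 and 46.

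**Figure D3:**
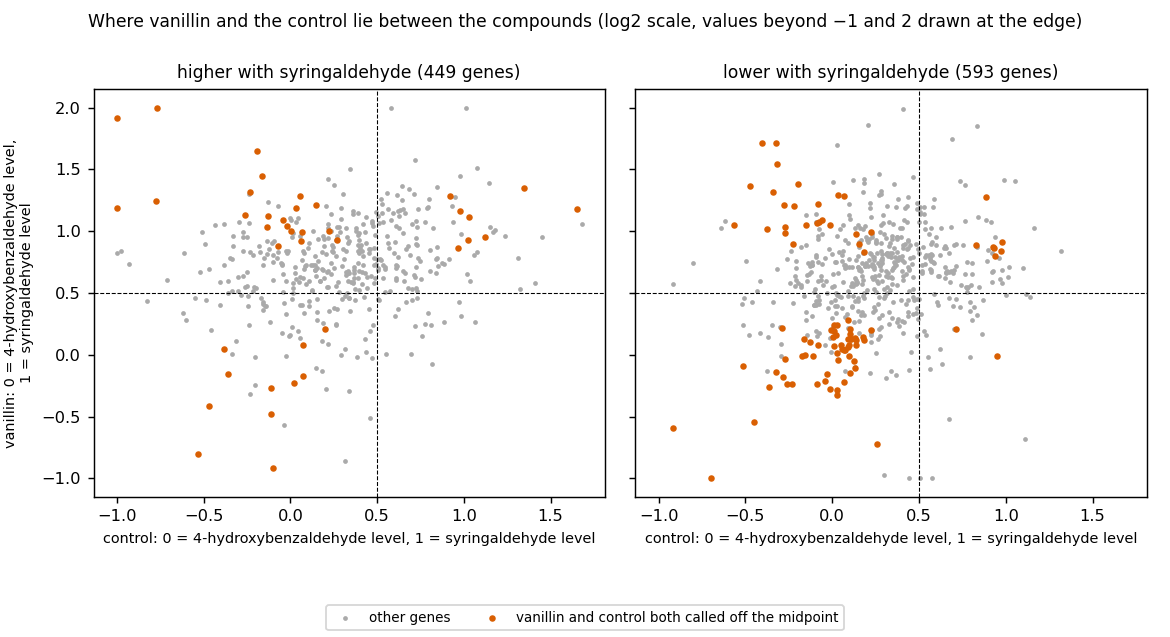
Position of the control (x axis) and of vanillin (y axis) at the 449 genes higher and the 593 genes lower with syringaldehyde, on a log2 scale where 0 is the 4-hydroxybenzaldehyde level and 1 the syringaldehyde level. Orange points, where both were called off the midpoint, gather near 0 on both axes in the panel of lower genes, where 56 had vanillin and the control both nearer to 4-hydroxybenzaldehyde.

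The 2 placements together gave groups of genes, formed after their values were seen and given as a description. The first group was higher with syringaldehyde and with vanillin, while the control lay nearer to 4-hydroxybenzaldehyde. By sign 229 of the 449 higher genes (51.0%) belonged here, and at 21 of them both placements passed the test (10 without control replicate 2, 12 or 13 without a vanillin library, 13 without 4-hydroxybenzaldehyde replicate 1, and 33 or 50 without syringaldehyde replicate 1 or 2). The medians of the 21 were 84.8 CPM with syringaldehyde, 24.1 with 4-hydroxybenzaldehyde, 143 with vanillin and 14.2 in the control.

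ARZ_11755_T1 led this group. It was at 85.96 and 83.6 CPM in the syringaldehyde libraries, against 1.35 and 1.43 in the 4-hydroxybenzaldehyde libraries, with 185 and 172 in the vanillin libraries and 1.38 and 1.79 in the controls. All 4 libraries of the methoxy compounds were far above the 4 others of this experiment, and vanillin was above syringaldehyde. The log2 difference was 5.92 ± 0.20 (SE), with an adjusted p of 2.48e-09 by edgeR's quasi-likelihood test. ARZ_5481_T1 had the same order, at 115 and 167 CPM with syringaldehyde against 9.001 and 12.8 with 4-hydroxybenzaldehyde, 290 and 293 with vanillin, and 11.05 and 14.01 in the controls (log2 difference 3.69 ± 0.23). With furans ARZ_11755_T1 was also above its control, at 14.8 and 26.97 CPM with HMF and 5.76 and 6.82 with furfural. The furan control was at 1.17 and 1.497 CPM. The weak acid libraries, with their control, ran from 0.455 to 1.405 CPM for this gene. ARZ_5481_T1 ran from 2.007 to 5.59 CPM over the 12 furan and weak acid libraries. These levels were scaled apart from this experiment and not tested.

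At 4 more of the named genes syringaldehyde lay close to vanillin, and 4-hydroxybenzaldehyde close to the control. ARZ_16703_T1 was at 86.2 and 68.5 CPM with syringaldehyde against 5.01 and 5.53 with 4-hydroxybenzaldehyde, while vanillin was at 88.1 and 81.2 and the controls at 4.72 and 2.63 (log2 difference 3.87 ± 0.24). ARZ_13715_T1 was at 79.9 and 80.8 CPM with syringaldehyde against 8.39 and 8.78 with 4-hydroxybenzaldehyde, while vanillin was at 79.7 and 82.8 and the controls at 10.9 and 6.39 (3.23 ± 0.22). In both genes the libraries of each pair of groups overlapped or nearly met, and the gap lay between the pairs. ARZ_17270_T1, at 530 and 394 CPM with syringaldehyde against 38.8 and 45.3 with 4-hydroxybenzaldehyde, and ARZ_8616_T1, at 163 and 93.9 against 9.95 and 12.5, had log2 differences of 3.46 ± 0.26 and 3.52 ± 0.30. Of 2 more abundant members named after their values were seen, ARZ_15400_T1 averaged 1549 CPM with syringaldehyde against 215 with 4-hydroxybenzaldehyde, 2515 with vanillin and 46.4 in the control, and ARZ_9991_T1 averaged 1465 against 565, 1748 and 103. In these 2 genes 4-hydroxybenzaldehyde lay above the control as well. Over the 12 furan and weak acid libraries ARZ_16703_T1 ran from 0.934 to 31.6 CPM and ARZ_8616_T1 from 5.07 to 29.3. ARZ_13715_T1 ran from 5.33 to 44.4 CPM, highest with furfural, and ARZ_17270_T1 from 14.9 to 258, highest in the weak acid control.

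A second group was higher with syringaldehyde while vanillin and the control both lay nearer to 4-hydroxybenzaldehyde, 86 genes by sign (19.2%) and 11 with both placements passed. That smaller count ran between 2 without control replicate 1 and 52 without syringaldehyde replicate 2, and was 18 by DESeq2. ARZ_6047_T1 was at 1760 and 1104 CPM in the syringaldehyde libraries, against 56.3 and 61.4 with 4-hydroxybenzaldehyde, 83.6 and 143 with vanillin, and 110 and 113 in the controls (log2 difference 4.60 ± 0.30, edgeR adjusted p = 5.88e-07). Both syringaldehyde libraries stood apart from the 6 others, which lay between 56.3 and 143 CPM, with the 4-hydroxybenzaldehyde libraries lowest. ARZ_2979_T1 was likewise high with syringaldehyde, at 671 and 607 CPM against 42.4 and 50.4 with 4-hydroxybenzaldehyde (3.78 ± 0.31). Its 4 other libraries lay between 38.2 and 73.9 CPM. Outside the experiment these genes were not at a fixed low level, since the 12 furan and weak acid libraries ran from 43.3 to 255 CPM for ARZ_6047_T1 and from 28.4 to 382 CPM for ARZ_2979_T1, as scaled within their own tables.

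ARZ_5193_T1 and ARZ_9103_T1 were abundant members of this second group, named after their values were seen. ARZ_5193_T1 averaged 1298 CPM with syringaldehyde against 253 with 4-hydroxybenzaldehyde, 174 with vanillin and 261 in the control (log2 difference 2.36 ± 0.24). ARZ_9103_T1 averaged 1550 CPM with syringaldehyde against 340, 260 and 378 in the same order (2.19 ± 0.22). ARZ_11073_T1, one of the 10 largest differences, was higher with syringaldehyde at 16.1 and 27.7 CPM, against 2.10 and 2.15 with 4-hydroxybenzaldehyde (3.36 ± 0.41). Vanillin at 4.08 and 8.77 CPM and the controls at 7.02 and 4.61 CPM lay in between, and neither was called off the midpoint.

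In another group syringaldehyde was higher, vanillin and the control lay on its side of the midpoint, and 4-hydroxybenzaldehyde stood below all of them. It held 115 genes by sign (25.6%), 8 with both placements passed (between 1 without 4-hydroxybenzaldehyde replicate 1 and 15 without syringaldehyde replicate 2). ARZ_4964_T1 was at 735 and 317 CPM with syringaldehyde against 45.8 and 49.7 with 4-hydroxybenzaldehyde, 698 and 1374 with vanillin, and 557 and 313 in the controls. Its log2 difference of 3.46 ± 0.43 was 2.73 without syringaldehyde replicate 1 and 3.96 without replicate 2. The 2 libraries with 4-hydroxybenzaldehyde were the lowest of the 8. The syringaldehyde libraries overlapped those with vanillin and the controls, while both vanillin libraries lay above both controls. Low levels of ARZ_4964_T1 were also seen with furans, at 37.2 and 46.2 CPM with furfural and 66.3 and 69.7 with HMF. The furan control was at 108 and 210 CPM. With weak acids it was higher, at 354 and 412 CPM with acetic acid and 754 and 818 with formic acid, against 108 and 204 in their control. These levels were scaled within their own tables and not tested.

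**Figure D4:**
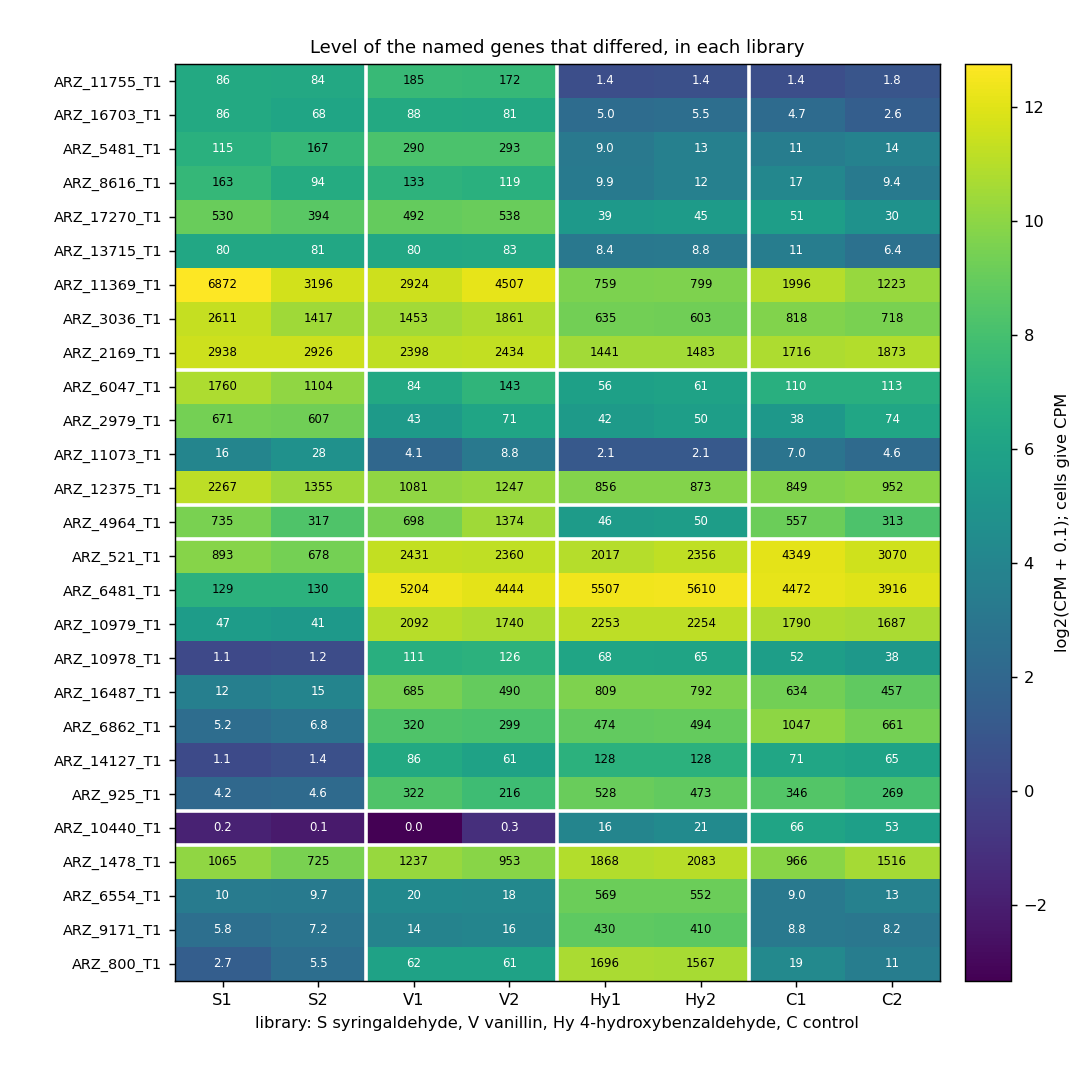
CPM of each named gene that differed (rows) in each of the 8 libraries (columns), coloured by log2(CPM + 0.1), with white lines between groups of genes placed alike by vanillin and the control. From ARZ_521_T1 to ARZ_925_T1 the 2 syringaldehyde columns are the darkest of their row, and for ARZ_6554_T1, ARZ_9171_T1 and ARZ_800_T1 the 2 4-hydroxybenzaldehyde columns are the brightest.

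In one group of lower genes syringaldehyde stood alone on its side of the midpoint. At 174 of the 593 (29.3%) vanillin and the control both lay nearer to 4-hydroxybenzaldehyde by sign, and at 56 both placements passed the test, with between 41 (without vanillin replicate 1) and 86 (without syringaldehyde replicate 2) when a library was left out. Of the 33 lower genes with at least 16-fold differences, 23 had this placement by sign. The medians of the 56 were 9.82 CPM with syringaldehyde against 103 with 4-hydroxybenzaldehyde, 113 with vanillin and 99.2 in the control, while over all tested genes the medians ran from 20.7 to 21.9 CPM in the 4 groups. Their log2 differences ran from −6.83 to −1.06 with a median of −3.41. Together the 56 genes took 0.181% and 0.196% of the counts in the syringaldehyde libraries, against 2.30% and 2.40% with 4-hydroxybenzaldehyde, 2.12% and 1.82% with vanillin, and 2.42% and 1.99% in the controls. By this summed share the syringaldehyde libraries lay below all 6 others, a difference that the choice of the genes fixes.

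ARZ_6481_T1 was the most abundant of these genes. It was at 129 and 130 CPM in the syringaldehyde libraries, against 5507 and 5610 with 4-hydroxybenzaldehyde, 5204 and 4444 with vanillin, and 4472 and 3916 in the controls (log2 difference −5.42 ± 0.26, edgeR adjusted p = 2.67e-08). The 6 libraries without syringaldehyde lay between 3916 and 5610 CPM, far above it. ARZ_6862_T1 was at 5.21 and 6.84 CPM with syringaldehyde against 474 and 494 with 4-hydroxybenzaldehyde, 320 and 299 with vanillin, and 1047 and 661 in the controls (−6.33 ± 0.28). ARZ_16487_T1 was at 12.3 and 14.8 CPM with syringaldehyde against 809 and 792 with 4-hydroxybenzaldehyde, 685 and 490 with vanillin, and 634 and 457 in the controls (−5.88 ± 0.27). ARZ_521_T1, abundant in every group, was lower by a smaller step, at 893 and 678 CPM with syringaldehyde against 2017 and 2356 with 4-hydroxybenzaldehyde, 2431 and 2360 with vanillin, and 4349 and 3070 in the controls (−1.48 ± 0.24).

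Several of the genes lowest with syringaldehyde carried consecutive identifier numbers. The run ARZ_924_T1 to ARZ_927_T1 had log2 differences of −3.53, −6.83, −5.09 and −3.92, the run ARZ_10977_T1 to ARZ_10979_T1 of −5.01, −5.85 and −5.67, and the run ARZ_14126_T1 to ARZ_14129_T1 of −3.97, −6.64, −5.03 and −5.48. Of these 11 genes 10 belonged to the group of 56, and at ARZ_924_T1 the placements did not both pass the test. ARZ_925_T1 was at 4.20 and 4.601 CPM with syringaldehyde against 528 and 473 with 4-hydroxybenzaldehyde, 322 and 216 with vanillin, and 346 and 269 in the controls. ARZ_10979_T1 was at 47.2 and 41.4 CPM with syringaldehyde against 2253 and 2254 with 4-hydroxybenzaldehyde, 2092 and 1740 with vanillin, and 1790 and 1687 in the controls. ARZ_10978_T1, its neighbour by number, was at 1.07 and 1.24 CPM with syringaldehyde against 68.4 and 65.4 with 4-hydroxybenzaldehyde, 111 and 126 with vanillin, and 51.5 and 37.7 in the controls. Within a run the levels differed widely from one identifier to the next, and syringaldehyde was the lowest at each.

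**Figure D5:**
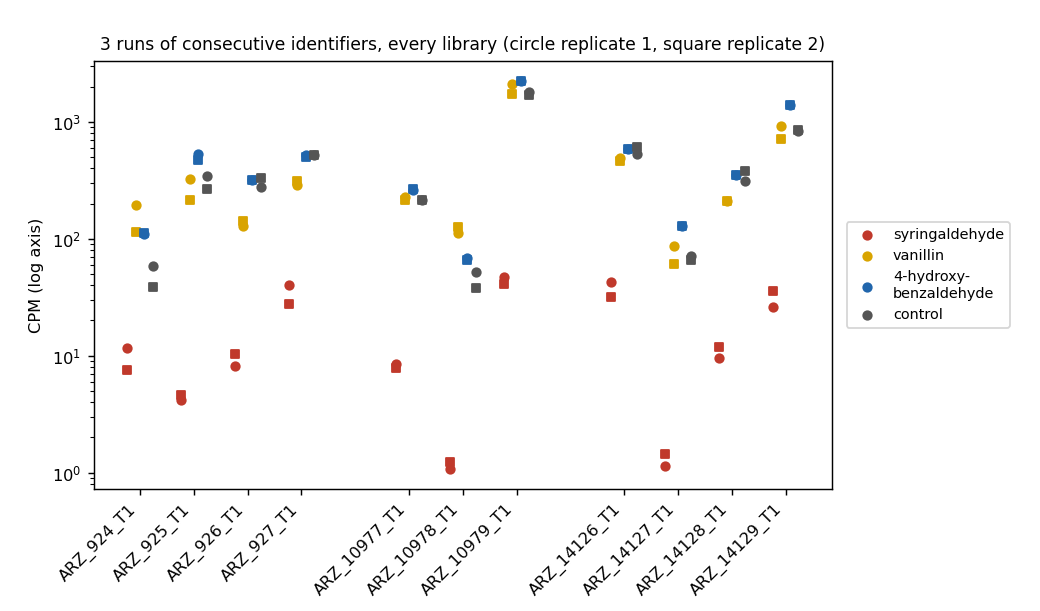
CPM on a log axis (y axis) in each of the 8 libraries for 3 runs of consecutive identifiers (x axis), circles for replicate 1 and squares for replicate 2, coloured by group. At all 11 identifiers the 2 syringaldehyde libraries lie below the 6 others, for example at 1.13 and 1.43 CPM against 61.4 to 128 CPM for ARZ_14127_T1.

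Over the table, the next identifier number met the same rule (past the test and at least 2-fold, in the same direction) after 81 of 730 genes lower with syringaldehyde (11.1%), beside 4.46% over all 16666 pairs of consecutive tested identifiers, and after 42 of 592 higher genes (7.09%), beside 3.54%. There were 12 runs of 3 or more lower genes, with 38 identifiers, and 6 runs of 3 or more higher genes, with 18. Whether the numbers follow the order of genes in the genome is not stated, and near-identical copies that share reads cannot be told from separate genes here.

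Levels this low were not seen for these genes elsewhere in the series. In the 12 furan and weak acid libraries, scaled within their own tables and not tested against these, ARZ_925_T1 ran from 121 to 551 CPM, ARZ_14127_T1 from 23.1 to 95.02, ARZ_6862_T1 from 94.9 to 714, ARZ_16487_T1 from 308 to 606, ARZ_10978_T1 from 15.8 to 56.0, ARZ_10979_T1 from 896 to 2392 and ARZ_6481_T1 from 1309 to 5682. Each of these 7 ranges lay above both syringaldehyde libraries.

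A different group of lower genes was high with 4-hydroxybenzaldehyde, while vanillin and the control lay nearer to syringaldehyde. It held 103 genes by sign (17.4%) and 7 with both placements passed (4 without a vanillin library, 11 without syringaldehyde replicate 2 and 12 without control replicate 2), with log2 differences from −6.01 to −1.82. The 7 took 0.238% and 0.239% of the counts in the 4-hydroxybenzaldehyde libraries, while the syringaldehyde, vanillin and control libraries ranged from 0.0184% to 0.0254%. The direction of this difference too is fixed by the choice of the genes. ARZ_9171_T1 was at 5.84 and 7.21 CPM with syringaldehyde against 430 and 410 with 4-hydroxybenzaldehyde, 14.5 and 15.8 with vanillin, and 8.80 and 8.23 in the controls (−6.01 ± 0.19, edgeR adjusted p = 2.14e-09). ARZ_6554_T1 was at 10.1 and 9.70 CPM with syringaldehyde against 569 and 552 with 4-hydroxybenzaldehyde, 19.7 and 17.7 with vanillin, and 8.97 and 13.4 in the controls (−5.82 ± 0.22). The 2 libraries with 4-hydroxybenzaldehyde were far above the other 6, and the vanillin libraries were the next highest. ARZ_11242_T1 and ARZ_5267_T1, named after their values were seen, averaged 9.18 and 9.32 CPM with syringaldehyde, against 452 and 354 CPM with 4-hydroxybenzaldehyde.

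ARZ_800_T1 had the widest difference of the genes described. It was at 2.70 and 5.47 CPM in the syringaldehyde libraries, against 1696 and 1567 in the 4-hydroxybenzaldehyde libraries, with 61.6 and 60.9 in the vanillin libraries and 18.8 and 11.2 in the controls. The 4 groups did not overlap, and their order ran from syringaldehyde over the control and vanillin to 4-hydroxybenzaldehyde. The log2 difference was −8.64 ± 0.37 (edgeR adjusted p = 1.10e-08), and the control was called nearer to syringaldehyde (adjusted p = 0.000167), while vanillin was not called off the midpoint (adjusted p = 0.333). The gene before it by number, ARZ_799_T1, was lower too, at 40.9 and 31.3 CPM with syringaldehyde against 200 and 185 with 4-hydroxybenzaldehyde, 92.1 and 95.9 with vanillin, and 70.9 and 68.9 in the controls (−2.41 ± 0.16). In the 12 furan and weak acid libraries ARZ_800_T1 ran from 6.69 to 18.4 CPM, ARZ_9171_T1 from 6.22 to 29.1 and ARZ_6554_T1 from 5.12 to 20.1, far below the 4-hydroxybenzaldehyde libraries.

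The most numerous lower genes were those at which vanillin lay nearer to syringaldehyde and the control nearer to 4-hydroxybenzaldehyde, 284 by sign (47.9%) and 25 with both placements passed (6 or 9 without vanillin replicate 1 or 2, 14 or 11 without 4-hydroxybenzaldehyde replicate 1 or 2, and 11 without control replicate 2). ARZ_10440_T1 had 3 and 2 reads with syringaldehyde against 236 and 320 with 4-hydroxybenzaldehyde, or 0.188 and 0.124 CPM against 15.97 and 20.8. From the summed reads, 5 with syringaldehyde and 556 with 4-hydroxybenzaldehyde, the level with 4-hydroxybenzaldehyde was 118 times that with syringaldehyde, with an exact 95% interval of 50.3 to 365 that covers counting error only. Vanillin was at 0 and 0.340 CPM and the controls at 66.2 and 53.3, so both methoxy compounds were near the limit of detection and 4-hydroxybenzaldehyde was below the control. ARZ_10438_T1, also named after its values were seen, likewise had both methoxy compounds lowest and 4-hydroxybenzaldehyde below the control. Its means were 1.59 CPM with syringaldehyde against 68.2 with 4-hydroxybenzaldehyde, 0.671 with vanillin and 190 in the control. ARZ_16710_T1 was placed alike, at means of 6.499, 149, 5.86 and 351 CPM in that order of groups. In the 12 other libraries ARZ_10440_T1 ran from 0.179 to 128 CPM, so levels near 0 were also seen there.

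Some of the most abundant genes differed by smaller amounts. ARZ_11369_T1 was at 6872 and 3196 CPM with syringaldehyde against 759 and 799 with 4-hydroxybenzaldehyde, 2924 and 4507 with vanillin, and 1996 and 1223 in the controls (log2 difference 2.69 ± 0.37). Its 2 syringaldehyde libraries were far apart, and the difference was 2.03 without syringaldehyde replicate 1 and 3.16 without replicate 2. ARZ_3036_T1 was higher at 2611 and 1417 CPM with syringaldehyde against 635 and 603 with 4-hydroxybenzaldehyde (1.70 ± 0.27). ARZ_2169_T1 was higher at 2938 and 2926 CPM with syringaldehyde against 1441 and 1483 with 4-hydroxybenzaldehyde (1.00 ± 0.20), ARZ_12375_T1 at 2267 and 1355 against 856 and 873 (1.07 ± 0.24), and ARZ_1478_T1 was lower at 1065 and 725 against 1868 and 2083 (−1.14 ± 0.27). These last 3 did not pass the test against 1.5-fold, and each lost its call without a 4-hydroxybenzaldehyde library: ARZ_2169_T1 without replicate 1 or 2 (edgeR adjusted p = 0.0870 and 0.0740), ARZ_12375_T1 without replicate 1 or 2 (0.0927 and 0.0835) and ARZ_1478_T1 without replicate 2 (0.0799).

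Other abundant genes were held within 1.5-fold between the compounds. ARZ_11635_T1 was at 3423 and 2402 CPM with syringaldehyde against 3018 and 2915 with 4-hydroxybenzaldehyde, a log2 difference of −0.03 with a 95% interval of −0.52 to 0.46. The intervals were −0.49 to 0.45 for ARZ_9509_T1, at 1904 and 1572 CPM with syringaldehyde against 1688 and 1842 with 4-hydroxybenzaldehyde, and −0.56 to 0.30 for ARZ_13573_T1, at 1547 and 1243 against 1534 and 1514. ARZ_14675_T1 was at 1195 and 1723 CPM with syringaldehyde against 1333 and 1522 with 4-hydroxybenzaldehyde (−0.45 to 0.51). In each of these 4 genes the 4-hydroxybenzaldehyde libraries lay close together and the syringaldehyde libraries overlapped them.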

How the data were processed

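RNA was extracted with Trizol and sequenced on the Ion Proton, per the labels' protocols. The authors deposited raw counts, whole numbers of reads per identifier with no scaling. No aligner or counter is given in the sources used here. As for the build, the one in the submitters' processing notes, Sscrofa 10.2, is of the pig and so cannot be that of the ARZ identifiers. The gene models are therefore unknown, and values of near-identical genes are uncertain. Counts of the phenolic aldehyde table (8 libraries in 4 groups) were kept with filterByExpr, scaled with TMM (factors 0.942 to 1.05) and fitted under R 4.3.3. The two-sided test was the robust quasi-likelihood F-test of edgeR 4.0.16. P-values were adjusted by Benjamini-Hochberg over 17495 genes, and the common biological coefficient of variation was 0.155. One pair of compounds was compared, with glmTreat for differences beyond 1.5-fold. Standard errors came from the F statistics. CPM are relative to the TMM-scaled library. Molar doses used molar masses from rdkit 2024.09.2. Identifiers were matched against 9642 genes of assembly Amore1. Figures were drawn with matplotlib 3.10.9.

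Named genes were the 10 largest differences in each direction among the 1042 genes meeting the criteria in the text, the 4 most abundant of these in each direction, and the 4 most abundant genes with a 95% interval within 1.5-fold. One gene met 2 of these. The compared libraries and the lists were chosen with earlier results of these data known. The tests were checked on simulated counts with the same spread in every group, which does not cover the unequal spread of these duplicates. The alternatives were DESeq2 1.42.0, median-of-ratios size factors, 2 other filters (none, or 10 CPM in at least 2 libraries), a replicate block, a fit of the 4 compared libraries, and leaving out each library in turn. A library left alone in its group was then taken to vary as the others do.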

Additional observations from a re-analysis of the deposited data

How the results depend on the processing

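The count of genes that differed, 3719 as reported, was 3704 with median-of-ratios scaling, 3723 without a filter, 3528 at a minimum of 10 CPM, 4032 by DESeq2 and 2665 in the fit of the 4 compared libraries, and 1116 to 4905 when a library was left out. The count beyond 1.5-fold, 760, was 499 by DESeq2, 483 in the fit of the 4 libraries, and 339 to 1373 when a library was left out. The counts off the midpoint ranged from 284 to 2358 for vanillin (1188 as reported) and from 702 to 4861 for the control (2716 as reported) when a library was left out. The cause was not tested.

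Replicate numbers did not pair the libraries: deviations from the group means correlated by −0.124 to 0.0983 across genes, 0.00923 between syringaldehyde and 4-hydroxybenzaldehyde. With the replicate block, 3441 genes differed (1615 higher and 1826 lower), 725 beyond 1.5-fold, and vanillin and the control were called off the midpoint at 991 and 2467.

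The named genes kept their side of the threshold in 243 fits with a library left out and in 185 under the other alternatives, counted per gene, and those that differed kept their direction. The 4 genes held within 1.5-fold were not called under any alternative run, but their log2 differences took either sign, from −0.31 to 0.22 for ARZ_11635_T1, −0.17 to 0.13 for ARZ_9509_T1, −0.30 to 0.04 for ARZ_13573_T1 and −0.24 to 0.27 for ARZ_14675_T1. The call was lost in 5, each without a 4-hydroxybenzaldehyde library, and in 1 fit of the 4 libraries (ARZ_12375_T1, edgeR adjusted p = 0.0550). Under 1 CPM the depth limits what is called: 28 of 977 genes passed.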
